A study of Mus musculus with 21 samples.

Results

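The comparison described here set the 3 E-protein heterodimers of TWIST1, as 1 class, against the TWIST1 homodimer in mouse embryoid bodies. Members were chosen by sample label alone, and 12 of the 21 samples of the series entered, 9 with a heterodimer and 3 with the homodimer. Embryoid bodies are aggregates of embryonic stem cells that begin to form germ layers when leukaemia inhibitory factor is withdrawn. All 12 samples came from C57BL/6 A2loxCre embryonic stem cells, a line with a doxycycline-inducible locus into which one coding sequence is placed. Every one of them was taken on day 3 of differentiation, with doxycycline given for the last 16 h. The genotypes were Twist1 homodimer, Twist1-Tcf3 dimer, Twist1-Tcf4 dimer and Twist1-Tcf12 dimer, each integrated in A2loxCre and each with 3 samples. The labels do not say whether a line was 1 clone or whether the 3 samples were separate cultures, so the p-values measure the spread between these samples, which may be technical. The question was which genes differ when TWIST1 is paired with any E-protein and not with itself, whether each partner shows the difference, and whether 1 unusual library is behind it.

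TWIST1 is a basic helix-loop-helix (bHLH) factor. Such proteins bind DNA as pairs, at short sites of the form CANNTG called E-boxes, and the broadly expressed E-proteins TCF3 (E2A), TCF4 (E2-2) and TCF12 (HEB) are the usual partners of tissue-restricted members such as TWIST1 and HAND1. Id proteins have the helix-loop-helix without the DNA-binding basic region and hold E-proteins in inactive pairs. TWIST1 is known for its part in mesoderm and cranial neural crest and in the epithelial to mesenchymal transition (EMT), in which cells lose tight junctions and take on a motile form.

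The 9 heterodimer libraries held 11028711 to 15999693 counts and the 3 homodimer libraries 9085260 to 11065289. The floor of detection was taken as 3 counts, or 0.182 to 0.324 CPM (counts scaled to library size with TMM factors) in these 12 libraries, and floors and intervals cover counting error only. Sample 1 labelled TCF12 dimer stood apart. Its chi-square per degree of freedom against the other samples of its group was 89.1 and 109, against 1.73 to 4.02 for the other pairs of replicates in these 4 groups, and limma's sample weight for it was 0.0328, against 0.651 to 1.85 in the other 20 libraries. Counts of called genes over all genes and over the gene lists are therefore also given without it where they differ. Class log2 fold changes of single genes named below also moved without it, and the examples given here kept their calls. They were Id3 (1.10 in place of 1.34), Prrx2 (1.38 in place of 1.62) and Evx1 (-2.23 in place of -1.88). Notum (1.32 in place of 1.53), Crabp1 (1.19 in place of 1.44) and Hand2 (2.75 in place of 2.94) moved too. So did Atoh8 (2.43 in place of 2.61) and Tcf15 (-0.67 in place of -0.51).

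The construct genes were checked first. Twist1 stood at 199, 181 and 166 CPM in the 3 homodimer samples, at 56.6, 52.3 and 56.5 CPM with TCF3, 41.8, 40.4 and 36.1 CPM with TCF4 and 39.5, 48.3 and 39 CPM with TCF12. All 9 heterodimer samples lay below all 3 homodimer samples, and the parental line stood at 8.11 CPM on average. The class difference was -2.01 on the log2 scale (SE 0.07, edgeR adjusted p 1.1e-12). Counts under Twist1 sum the integrated and the native gene, so this value does not measure the amount of dimer. The homodimer sequence, which the labels do not give, may also carry the TWIST1 part more than once. The 2 classes thus differ in Twist1 RNA as well as in partner, and these cannot be told apart. Twist1 had 5687, 5397 and 5440 counts in the 3 induced monomer samples, against 1848, 2016 and 1617 with the homodimer. The source of these differences was not tested. Tcf4 was at 349, 337 and 305 CPM in the TCF4 dimer line, against 43, 41.3 and 42.3 CPM with the homodimer. Tcf3 was at 151, 152 and 159 CPM where the label names TCF3 and at 186, 188 and 180.4 CPM with the homodimer. Tcf12 was at 53.2, 118 and 108 CPM where the label names TCF12, 120.2, 91.3 and 102 CPM where it names TCF3, 93.7, 92.5 and 85 CPM with TCF4 and 65.9, 59.3 and 65.3 CPM with the homodimer. Only Tcf4 thus marked its own line, and the other libraries are called TCF3-labelled and TCF12-labelled below.

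Of 14311 tested genes, 2007 (14%) passed an adjusted p of 0.05 between the classes, 1143 (7.99%) higher and 864 (6.04%) lower with the heterodimers. Taken singly, the TCF3-labelled libraries differed from the homodimer at 3282 genes (22.9%), with 13.6% of the tested genes higher and 9.35% lower. The TCF4 dimer line differed at 835 (5.83%), with 3.13% higher and 2.7% lower, and the TCF12-labelled libraries at 2197 (15.4%), with 8.6% higher and 6.75% lower. These 3 comparisons share the homodimer samples. Each heterodimer passed in the direction of the class at 474 genes (3.31% of those tested, 23.6% of those called), 307 higher and 167 lower. At 458 of these, all 9 heterodimer samples also lay on one side of all 3 homodimer samples. Such separation was found above the homodimer at 5.07% and below it at 4.13% of all tested genes. Of the 2007 genes, 1887 had the same sign in all 3 heterodimers, and 1044 (52.0%) also differed among the 3 heterodimers, as did 3722 (26%) of all tested genes. Of the 474 genes shared by each heterodimer, 203 differed among the 3.

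More genes passed without sample 1 labelled TCF12 dimer. Without it, 4173 genes passed (2117 or 14.7% higher, 2056 or 14.3% lower), and the common biological coefficient of variation was 0.0539 in place of 0.120. Of the 2007 genes, 2005 (99.9%) passed in the same direction without it, and so did 473 of the 474 shared by each heterodimer. The number shared by each heterodimer was 1143 without it (655 higher, 488 lower). Singly, the TCF3-labelled libraries then differed from the homodimer at 5988 genes, the TCF4 dimer line at 2498 and the TCF12-labelled libraries at 3054. Leaving out sample 3 labelled TCF12 dimer instead gave 4998 genes for the TCF12-labelled libraries. Fewer passed without any 1 homodimer sample. With homodimer sample 1, 2 or 3 left out, 1345, 1305 and 1365 genes passed.

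**Figure D1:**
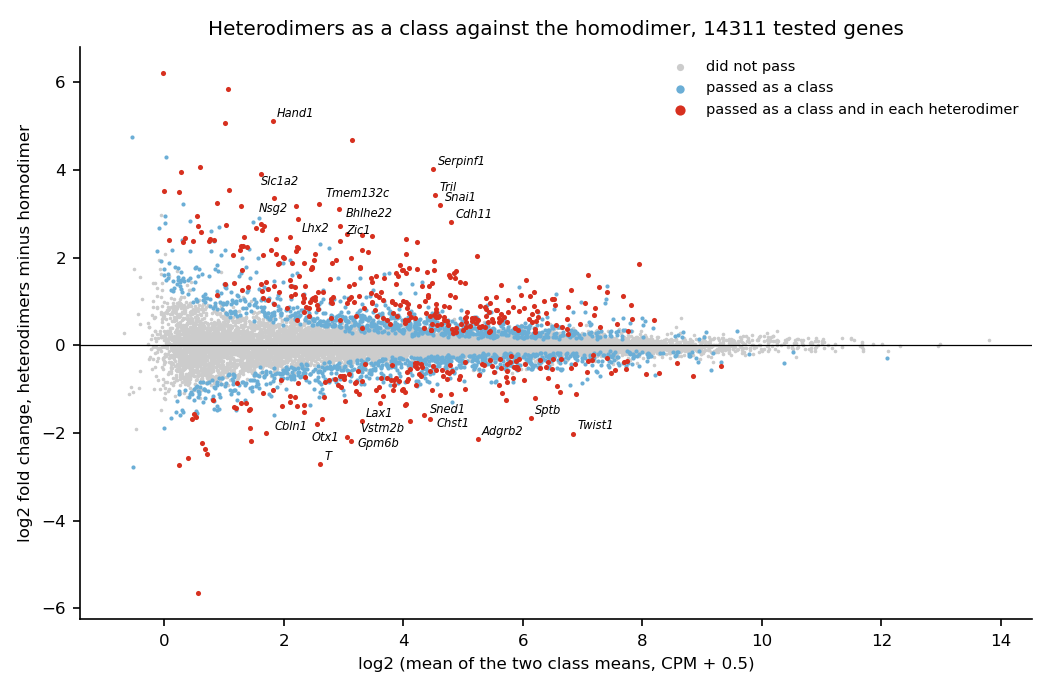
Level (x axis, log2 of the mean of the 2 class means in CPM plus 0.5) against the log2 fold change of heterodimers minus homodimer (y axis) for each of the 14311 tested genes. Grey points did not pass, the 1533 blue ones passed as a class, and the 474 red ones also passed in each heterodimer. The labelled genes are from the 12 highest and 12 lowest chosen by the rule given in the methods, with Hand1 at 5.11 and T at -2.71.

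The 12 genes with the largest shared rise were taken from 244 genes that passed as a class with and without sample 1 labelled TCF12 dimer, passed in each heterodimer, were fully separated and reached 5 CPM. Their direction and separation follow from that choice. Hand1, a bHLH factor of heart and extraembryonic mesoderm, had 0.216, 0.18 and 0 CPM with the homodimer, or 4 counts in the 3 libraries together. It had 7.19, 2.56 and 3.66 CPM in the TCF3-labelled, 3.54, 2.22 and 2.19 CPM in the TCF4 and 16.8, 10.01 and 5.08 CPM in the TCF12-labelled libraries. Every heterodimer sample lay above every homodimer sample, with the TCF12-labelled set highest and its sample 1 the extreme. The ratio of summed scaled counts was 41.7 (95% exact interval 16.2 to 154), and the log2 fold change was 5.11 (SE 0.66, edgeR adjusted p 2e-05) and 4.95 without that sample.

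Snai1, a zinc finger repressor of E-cadherin, was at 4.96, 4.22 and 4.32 CPM with the homodimer and ranged from 24.8 through a median of 37.1 to 78.7 CPM over the 9 heterodimer samples. The homodimer samples resembled the parental line (mean 5.58 CPM), and none reached the lowest heterodimer sample. The log2 fold change was 3.20 (SE 0.25, edgeR adjusted p 4.7e-08).

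Bhlhe22, a bHLH transcriptional repressor, was at 1.62, 1.26 and 1.13 CPM with the homodimer and 4.5 to 21.9 CPM (median 12.8) with the heterodimers. Its rise was smallest with TCF4, at 5.66, 7.44 and 4.5 CPM, and the log2 fold changes were 3.61, 2.12 and 3.60 in the order TCF3, TCF4, TCF12 (class 3.11, SE 0.30, edgeR adjusted p 6.5e-07). Lhx2, a LIM homeodomain factor of forebrain and limb, and Zic1, a zinc finger factor of neural tube and somite, also rose least with TCF4. Lhx2 was at 0.432, 0.987 and 1.23 CPM with the homodimer, 3.38, 3.42 and 2.86 CPM with TCF4, 9.51, 6.8 and 8.46 CPM where TCF3 was the label and 10.8, 11.6 and 10.8 CPM where TCF12 was (class log2 fold change 2.88, SE 0.34). Zic1 was at 2.37, 1.44 and 1.54 CPM with the homodimer, 7.47, 7.78 and 5.96 CPM with TCF4, 15, 10.3 and 12.2 CPM where TCF3 was the label and 15.8, 23.1 and 15.8 CPM where TCF12 was (class log2 fold change 2.72, SE 0.21). All 3 of these factors differed among the heterodimers, with edgeR adjusted p of 0.00033, 0.00038 and 7.2e-05.

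A further 6 genes encode surface, secreted or membrane proteins. Cdh11, the cadherin of mesenchymal cells, was at 7.66, 5.92 and 6.58 CPM with the homodimer, 66.8, 43.2 and 54.4 CPM in the TCF3-labelled, 35.5, 39.4 and 35.5 CPM in the TCF4 and 39.8, 66.5 and 52.3 CPM in the TCF12-labelled libraries. Homodimer and heterodimer samples did not overlap (log2 fold change 2.82, SE 0.17, edgeR adjusted p 2e-09). Serpinf1, the secreted serpin also called PEDF, was at 2.48, 2.15 and 2.26 CPM with the homodimer, 78.9, 38.2 and 46.3 CPM in the TCF3-labelled, 21.5, 17.4 and 15.3 CPM with TCF4 and 85.1, 42.2 and 33.6 CPM in the TCF12-labelled samples, so its TCF4 samples formed the low end of the heterodimers. Its log2 fold change of 4.02 (SE 0.35) became 3.85 without sample 1 labelled TCF12 dimer, the largest move among the 24 genes on leaving it out. Tril, a leucine-rich repeat partner of toll-like receptors, stood at 3.24, 2.87 and 5.25 CPM with the homodimer and 29 to 55.7 CPM (median 40.3) with the heterodimers.

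Slc1a2, the glial glutamate transporter, and Nsg2, a protein of neuronal vesicles, were the most even of the group. Slc1a2 was at 0.648, 0.539 and 0.412 CPM with the homodimer and 3.46 to 7.3 CPM (median 5.27) with the heterodimers. Nsg2 was at 0.216, 0.718 and 1.44 CPM with the homodimer and 6.4 to 9.01 CPM (median 6.83) with the heterodimers. Their edgeR adjusted p among the 3 heterodimers was 0.487 and 0.401, and they were the only 2 of the 12 above 0.05, which does not show that the partners act alike. In neither gene did a heterodimer sample fall to the homodimer range. Tmem132c, a membrane protein, was at 1.3, 0.987 and 0.72 CPM with the homodimer and 4.68 to 14.5 CPM with the heterodimers.

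**Figure D2:**
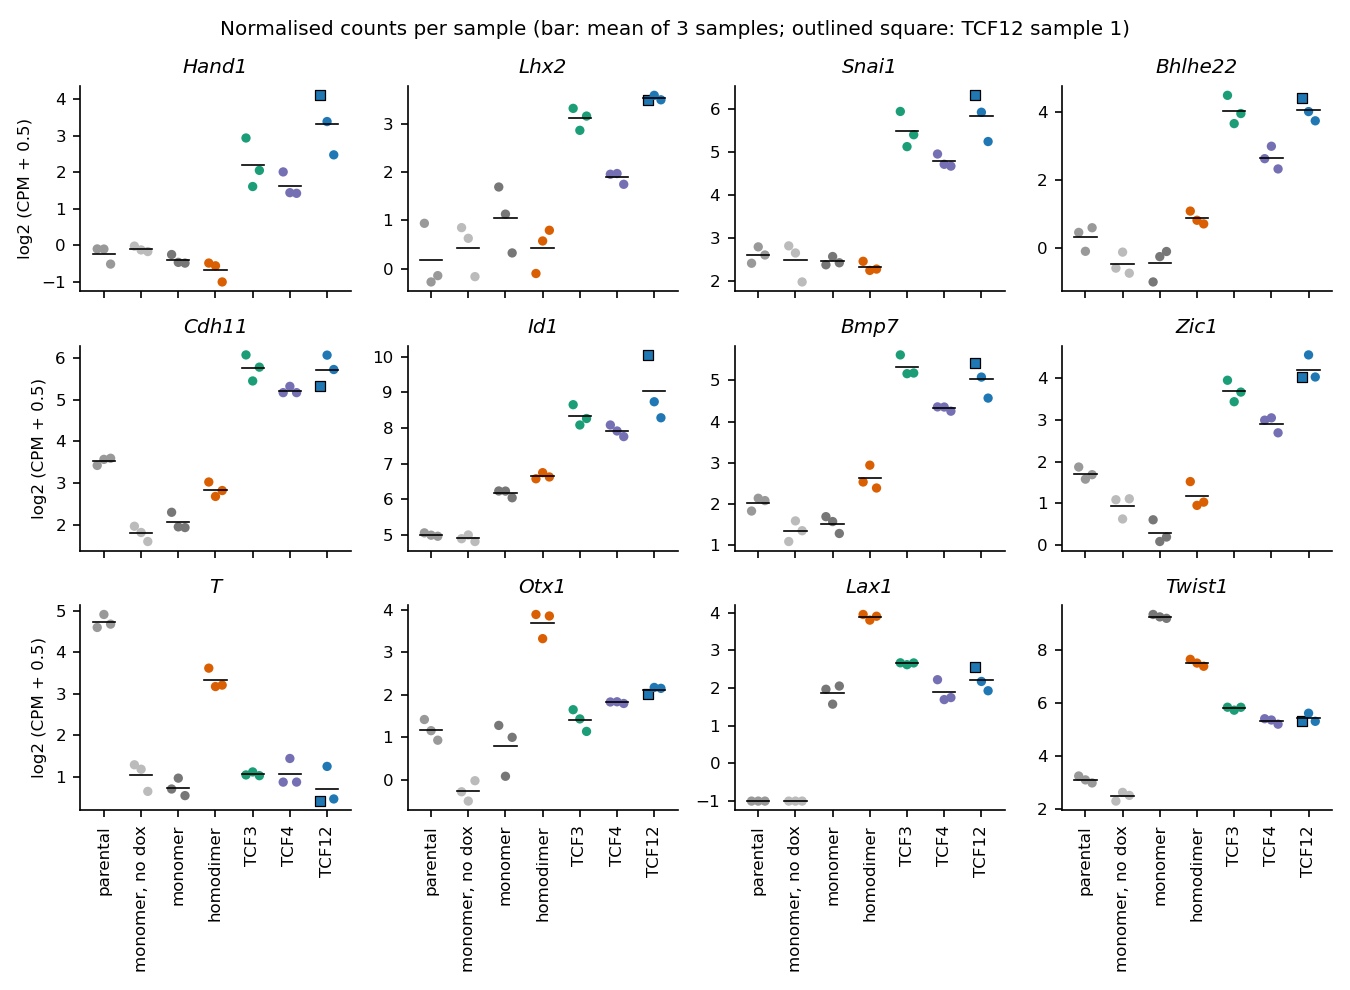
Normalised counts of 12 genes in every sample of the series, as log2 of CPM plus 0.5 (y axis), by group (x axis, 3 samples each, bar at their mean). The outlined square is sample 1 labelled TCF12 dimer, which is the highest sample for Hand1 and Id1 and lies within the other heterodimer samples for Zic1. For T and Twist1 the 9 heterodimer samples lie below the 3 homodimer samples.

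The genes with the largest shared fall were led by T (Brachyury), the T-box factor of the primitive streak and early mesoderm. It was at 11.8, 8.53 and 8.75 CPM with the homodimer, 1.57, 1.68 and 1.55 CPM in the TCF3-labelled, 1.34, 2.22 and 1.34 CPM in the TCF4 and 0.839, 1.89 and 0.888 CPM in the TCF12-labelled libraries. The groups did not overlap, and the heterodimer samples were near the uninduced monomer line (mean 1.6 CPM) while the parental line averaged 26.1 CPM. The log2 fold change was -2.71 (SE 0.18, edgeR adjusted p 6.3e-09), with -2.59, -2.58 and -2.96 for TCF3, TCF4 and TCF12. No difference among these 3 was called (adjusted p 0.5).

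Several of these genes were high with the homodimer and low elsewhere in the series. Otx1, a homeobox gene of the anterior brain, was at 14.4, 9.52 and 14 CPM with the homodimer and 1.71 to 4.02 CPM (median 3.07) with the heterodimers, against a mean of 1.78 CPM in the parental line. Lax1, an adaptor of lymphocyte signalling, was listed at 0 in all parental and uninduced samples, stood at 15, 13.5 and 14.5 CPM with the homodimer and kept 2.74 to 5.87 CPM (median 4.17) with the heterodimers. So Lax1 was present with each heterodimer, at a lower level than with the homodimer (log2 fold change -1.74, SE 0.14, edgeR adjusted p 4.9e-07). Adgrb2, an adhesion G protein-coupled receptor of brain, was at 70.7, 56.5 and 54.2 CPM with the homodimer, 19.5, 18.7 and 23.5 CPM with TCF4, 12.8, 13.6 and 14.7 CPM in the TCF12-labelled and 9.26, 9.8 and 8.3 CPM in the TCF3-labelled libraries. The 3 heterodimers did not overlap each other for this gene, and they differed with an edgeR adjusted p of 9.8e-06.

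Gpm6b, a proteolipid of neuronal and glial membranes, was at 13, 13.5 and 13.8 CPM with the homodimer and 1.82 to 3.77 CPM (median 3) with the heterodimers. Cbln1, a secreted organiser of synapses, was at 9.5, 7.99 and 7.41 CPM and 1.32 to 3.36 CPM (median 2.39). Chst1, a keratan sulphate sulfotransferase, was at 34.1, 32.4 and 31 CPM and 8.03 to 14.2 CPM. For each of these genes the 9 and the 3 samples did not overlap, and the class log2 fold changes were -2.18, -1.80 and -1.68. Vstm2b, the beta-spectrin gene Sptb and the matrix glycoprotein gene Sned1 were on the list too, beside Twist1 itself, with class log2 fold changes of -1.73, -1.65 and -1.58. Sned1 was at 1.78, 8.62 and 13.9 CPM in the TCF12-labelled libraries, so that sample 1 was far below the others, and its class log2 fold change was -1.44 without that sample.

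Each of the 24 genes kept its direction and its call under all 25 alternative settings. The choice largely fixed this, since it asked for large size, full separation and a pass in each heterodimer. It also asked for a pass without sample 1 labelled TCF12 dimer. Leaving that sample out moved no log2 fold change among them by more than 0.17. Of the 12 higher genes 10 differed among the 3 heterodimers, and of the 12 lower ones 7. TCF4 gave the smallest rise for 11 of the 12 higher genes, the exception being Nsg2.

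**Figure D3:**
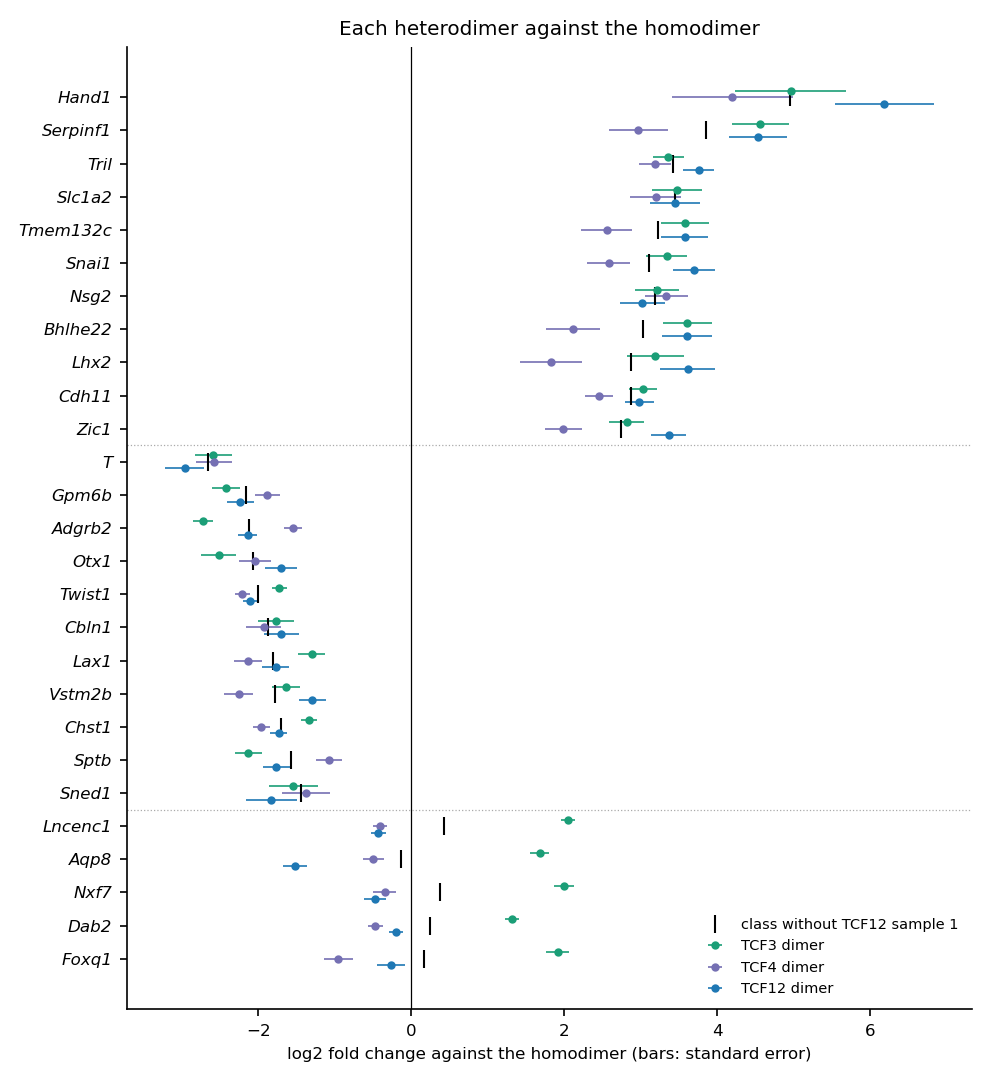
Log2 fold change of each heterodimer against the homodimer (x axis, point with standard error) for the named genes that all 3 share and those on which they split (y axis). The tick is the class value without sample 1 labelled TCF12 dimer. For the shared genes, above, all 3 points lie on one side of 0, and for the split genes, at the bottom, only the TCF3-labelled libraries lie to the right, for example Aqp8 at 1.68 against -0.49 and -1.52.

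To place these genes beside their E-boxes, promoters were read from RefSeq (build GRCm38.p6), as 250 bases before and 50 after a gene's start. Of the 12 higher genes 8 had an entry and 7 of these held CANNTG, and of the 12 lower genes 9 had an entry and 3 held it. Counted by gene, 67.6% of all tested genes with an entry held it. The shares were 68.9% of the higher and 75.0% of the lower genes shared by each heterodimer, so the larger sets did not show this contrast. The 250 bases before the start are shown for 3 higher and 2 lower genes, which differ in how their E-boxes are arranged, 5′ to 3′ on the gene's strand with each CANNTG in capitals. Serpinf1 (chr11:75422624-75422873, minus strand) holds 4 dispersed ones, Snai1 (chr2:167537945-167538194, plus strand) a single CACCTG, and Nsg2 (chr11:32000169-32000418, plus strand) 3 within a short stretch. T (chr17:8434173-8434422, plus strand) holds 3, and Lax1 (chr1:133690109-133690358, minus strand) a pair with 5 bases between them.
Serpinf1: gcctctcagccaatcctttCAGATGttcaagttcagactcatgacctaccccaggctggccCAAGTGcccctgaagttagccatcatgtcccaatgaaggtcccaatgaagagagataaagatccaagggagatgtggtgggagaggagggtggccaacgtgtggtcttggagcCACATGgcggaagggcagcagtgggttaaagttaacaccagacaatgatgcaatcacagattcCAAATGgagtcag
Snai1: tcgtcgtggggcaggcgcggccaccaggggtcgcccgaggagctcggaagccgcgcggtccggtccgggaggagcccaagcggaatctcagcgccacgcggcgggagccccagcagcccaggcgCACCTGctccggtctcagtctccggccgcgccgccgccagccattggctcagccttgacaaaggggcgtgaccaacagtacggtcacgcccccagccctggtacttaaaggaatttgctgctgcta
Nsg2: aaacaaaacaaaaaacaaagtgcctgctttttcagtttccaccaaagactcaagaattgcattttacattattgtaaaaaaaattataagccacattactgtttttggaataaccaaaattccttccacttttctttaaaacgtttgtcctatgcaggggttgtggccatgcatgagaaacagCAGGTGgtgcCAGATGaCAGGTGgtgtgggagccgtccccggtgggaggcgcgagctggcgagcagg
T: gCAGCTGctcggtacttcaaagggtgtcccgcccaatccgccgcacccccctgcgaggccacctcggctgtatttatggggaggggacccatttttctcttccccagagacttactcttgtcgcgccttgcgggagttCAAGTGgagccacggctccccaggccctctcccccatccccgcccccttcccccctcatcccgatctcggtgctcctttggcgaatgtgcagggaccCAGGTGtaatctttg
Lax1: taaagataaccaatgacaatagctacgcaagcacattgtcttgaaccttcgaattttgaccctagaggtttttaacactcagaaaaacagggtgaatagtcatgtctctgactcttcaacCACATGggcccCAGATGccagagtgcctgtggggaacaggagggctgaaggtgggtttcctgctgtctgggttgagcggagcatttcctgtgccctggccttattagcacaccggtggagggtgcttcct
A match describes letters in this window and is not a binding site.

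Over the whole sets, CANNTG was in 66.4% of 304 promoters of the 307 higher genes shared by each heterodimer, in 68.6% of 175 promoters of the 167 lower ones, in 64.2% of 13283 promoters of tested genes and in 72.3% of all 32851 promoters in the table. Both strands were searched, and every 6-letter form below is also a CANNTG. The form CAGATG was on either strand in 17.4% of the higher, 14.9% of the lower and 11.5% of the tested promoters (17.2% of all). The form CACCTG, which is also the one in the Snai1 promoter shown, was on either strand in 13.8%, 25.7% and 18.8% (20.2% of all). The palindrome CAGCTG was in 21.4%, 19.4% and 15.5% (16.3% of all). The palindrome bound by MYC and its relatives, CACGTG, was in 8.55%, 8.57% and 9.97% (7.15% of all). A pair of CANNTG with 5 bases between, as in Lax1, was in 3 of 304 higher (0.987%), 6 of 175 lower (3.43%), and 0.467% of the tested promoters (0.767% of all). A gene can have several overlapping promoters in the table, and 2 of the 6 are overlapping promoters of Lax1 that hold the same pair. Counted by gene, the pair was found for 3 of 222 higher genes with an entry, 5 of 120 lower ones and 60 of 10331 tested ones. These shares are descriptions and were not tested.

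All 4 Id genes, the helix-loop-helix inhibitors, were higher with the heterodimers (median log2 fold change 1.62, against 0.01 over all tested genes). Id1 was at 94.6, 107 and 98.1 CPM with the homodimer, 402, 271 and 307 CPM in the TCF3-labelled, 271, 241 and 216 CPM in the TCF4 and 1060, 426 and 311 CPM in the TCF12-labelled libraries. The groups did not overlap, and sample 1 labelled TCF12 dimer was the highest of all. The log2 fold change was 1.86 (SE 0.26, edgeR adjusted p 4.6e-05), and 1.62 without that sample. Id2 (1.61), Id3 (1.34) and Id4 (1.64) followed, Id3 without passing in the TCF4 line on its own (log2 fold change 0.65, adjusted p 0.232). The counts in this and the following lists stand beside 7.99% higher and 6.04% lower over all tested genes. Without sample 1 labelled TCF12 dimer those shares were 14.7% and 14.3%. Of 12 tested tissue-restricted bHLH factors 6 were higher and 3 lower. Beside Hand1 and Bhlhe22 the higher ones were Hand2, Atoh8, the blood and vessel factor Tal1 (0.84) and Neurod1 (0.44). Of these 6, Hand1, Bhlhe22 and Hand2 passed in each heterodimer. Atoh8 and Tal1 did not pass with TCF4 (edgeR adjusted p 0.162 and 0.12), and Neurod1 passed with TCF4 alone. Hand2 was at 0.108, 0.269 and 0.206 CPM with the homodimer and 0.852 to 4.2 CPM with the heterodimers. The lower ones were Mesp2 (-1.18), Ascl2 (-0.85) and Tcf15 (-0.51), the first and last of them factors of paraxial mesoderm. None of these 3 passed in each heterodimer, and Tcf15 was at -0.07 in the TCF3-labelled libraries (edgeR adjusted p 0.856).

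The EBF factors have a helix-loop-helix of their own, and 3 of the 4 tested were higher. Ebf2, a regulator of mesenchymal and fat cells, had 0, 0.18 and 0 CPM with the homodimer, which is 2 counts, and 0.855 to 5.37 CPM (median 2.82) over the heterodimer samples. The ratio of summed scaled counts was 44.2 (95% exact interval 12.1 to 367, edgeR adjusted p 2.3e-05). Ebf3 had 3 homodimer counts and a ratio of 8.89 (2.95 to 43.9), and Ebf1 was higher by 0.74 (edgeR adjusted p 0.00135). Of 7 tested regulators of G protein signalling 2 were higher, Rgs2 (0.97) and Rgs4. Rgs4 had a single count with the homodimer and 0.73 to 5.29 CPM with the heterodimers, a ratio of 91.2 (16.3 to 3612).

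Of 6 tested EMT transcription factors 5 were higher (median 1.47), with and without sample 1 labelled TCF12 dimer, and 3 passed in each heterodimer. These were Snai1, Snai2 and Zeb2. Snai2 was at 0.755, 0.718 and 1.34 CPM with the homodimer, 10.7, 5.38 and 6.91 CPM in the TCF3-labelled, 2.91, 3.08 and 3.1 CPM in the TCF4 and 6.61, 5.5 and 4.36 CPM in the TCF12-labelled libraries, and no heterodimer sample fell into the homodimer range (log2 fold change 2.42, SE 0.31, edgeR adjusted p 2.1e-05). Zeb2 was at 6.37, 7 and 6.89 CPM and 12.6 to 33.6 CPM, higher by 1.66. Zeb1 (0.97) passed in the TCF3- and TCF12-labelled libraries, while with TCF4 its samples at 5.82, 5.47 and 3.65 CPM overlapped the homodimer samples at 4.1, 3.95 and 4.22 CPM. In bulk RNA, fewer cells of a type and less RNA per cell cannot be told apart.

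Of 15 tested mesenchymal and adhesion genes 7 were higher and 1 lower (median 0.36), or 9 and 3 without sample 1 labelled TCF12 dimer. Vimentin (Vim), the filament of mesenchymal cells, was at 110.2, 104 and 112 CPM with the homodimer and 135 to 362 CPM (median 218) with the heterodimers (log2 fold change 0.97, SE 0.12). Vim did not pass in the TCF4 line on its own (0.39, edgeR adjusted p 0.142). Mmp2, a gelatinase, was at 107, 103 and 104 CPM with the homodimer and 165 to 210.4 CPM with the heterodimers, with log2 fold changes of 0.75, 0.89 and 0.91 in TCF3, TCF4 and TCF12 order. The contractile gene Cnn1 was the lower one (-0.37), and it passed in the TCF3-labelled libraries alone (-0.84, -0.07 and -0.20 in the same order). Of 17 tested collagen and matrix genes 10 were higher and 0 lower (median 0.61), or 12 and 0 without that sample. Col1a2, a chain of type I collagen, was at 3.99, 3.41 and 4.84 CPM with the homodimer and 8.21 to 20.4 CPM with the heterodimers (log2 fold change 1.76, SE 0.18), and Lox, which cross-links collagen, was higher by 1.87. Col1a1, the partner chain, did not pass (0.30, edgeR adjusted p 0.149). Within single heterodimers 14 of the 17 passed as higher in the TCF3-labelled libraries, 3 with TCF4, and 5 in the TCF12-labelled libraries, where 2 were lower.

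Epithelial genes were called in both directions. Of 12 tested, 4 were lower (Ocln -0.76, Cldn7 -0.56, Esrp1 -0.42 and Cldn6 -0.26, genes of tight junctions and epithelial splicing) and the desmosome gene Dsp was higher (0.75). The median was -0.24. None of the 12 passed in each heterodimer. Singly, 1 was higher and 6 were lower in the TCF3-labelled libraries. With TCF4 1 was higher and 0 lower, and in the TCF12-labelled libraries 0 were higher and 3 lower. Ocln was at 24.8, 26.5 and 24.2 CPM with the homodimer and 7.76 to 18.2 CPM with the heterodimers, without overlap. E-cadherin (Cdh1) was at 1018, 962 and 945 CPM with the homodimer, 706, 767 and 721 CPM in the TCF3-labelled, 1048, 1041 and 1081 CPM in the TCF4 and 621, 862 and 949 CPM in the TCF12-labelled libraries. Its class difference of -0.19 did not pass (edgeR adjusted p 0.146), and the TCF4 samples lay above the homodimer samples. Without sample 1 labelled TCF12 dimer 10 of the 12 were lower, Cdh1 among them (-0.14, adjusted p 0.00339), and 1 was higher.

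Of 12 tested factors of lateral and cardiac mesoderm 11 were higher and 0 lower (median 1.79, by single heterodimer 1.99, 1.09 and 1.91 in the order TCF3, TCF4, TCF12). Without sample 1 labelled TCF12 dimer all 12 passed. Singly, 10 passed as higher in the TCF3-labelled, 4 in the TCF4 and 10 in the TCF12-labelled libraries, and 4 passed in each. Isl1, a LIM homeodomain factor of the second heart field, was at 0.648, 0.628 and 0.206 CPM with the homodimer, 9.75, 4.5 and 5.37 CPM in the TCF3-labelled, 2.04, 1.8 and 0.973 CPM in the TCF4 and 5.98, 5 and 5 CPM in the TCF12-labelled libraries. No sample overlapped, but the TCF4 line did not pass alone (log2 fold change 1.63, edgeR adjusted p 0.0878). Mef2c, a MADS-box factor of heart muscle, was at 1.83, 1.44 and 1.65 CPM and 3.22 to 8.62 CPM (class log2 fold change 1.87, SE 0.25). Pdgfra, the PDGF receptor of mesoderm and primitive endoderm, was at 6.48, 6.55 and 5.97 CPM with the homodimer, 14.7, 12.6 and 11.3 CPM with TCF4, 12.4, 19.9 and 16.7 CPM in the TCF12-labelled and 44.3, 42 and 42.5 CPM in the TCF3-labelled libraries. Foxf1 was the member that did not pass (1.94, edgeR adjusted p 0.0504, or 0.022 without that sample). Msx1, Msx2, Tbx20, Tbx3, Gata4 and Bmp4 were higher by 0.58 (Gata4) to 2.16 (Msx2), and Gata4 and Tbx3 passed in the TCF3-labelled libraries alone.

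Of 13 tested blood and vessel precursor genes 8 were higher and 0 lower (median 0.94), with the same counts without sample 1 labelled TCF12 dimer. Singly, 10 were higher and 0 lower in the TCF3-labelled libraries. With TCF4 2 were higher and 1 lower, and in the TCF12-labelled libraries 8 were higher and 1 lower. As a class and in each heterodimer, 2 passed. Kdr, the VEGF receptor of vessel precursors, was at 2.81, 2.06 and 3.09 CPM with the homodimer, 17, 13 and 16.2 CPM in the TCF3-labelled, 6.61, 5.9 and 5.05 CPM in the TCF4 and 5.56, 11.6 and 12.4 CPM in the TCF12-labelled libraries. Fli1, an ETS factor of the same cells, was at 0.54, 0.718 and 0.823 CPM and 2.39 to 7.27 CPM (median 4.07). Neither gene had overlapping groups, and both passed in each heterodimer (class log2 fold changes 1.87 and 2.63). Of the primitive blood markers only Gata1 and Itga2b could be tested. Gata1 was lower (-1.11), and Hba-x was at 0 in all 12 samples.

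Of 11 tested homeobox genes of mesenchyme 8 were higher and 1 lower (median 0.98). Meox2, a somite factor, had 3 counts with the homodimer (0, 0.18 and 0.103 CPM) and 0.973 to 3.14 CPM (median 2.11) with the heterodimers, a ratio of 19 (95% exact interval 6.4 to 92.7, edgeR adjusted p 0.00014). It was the one gene of this list to pass in each heterodimer. Prrx1 (1.29), Prrx2 (1.62), Dlx2 (1.74) and Alx1 (0.98) were higher, among others.

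**Figure D4:**
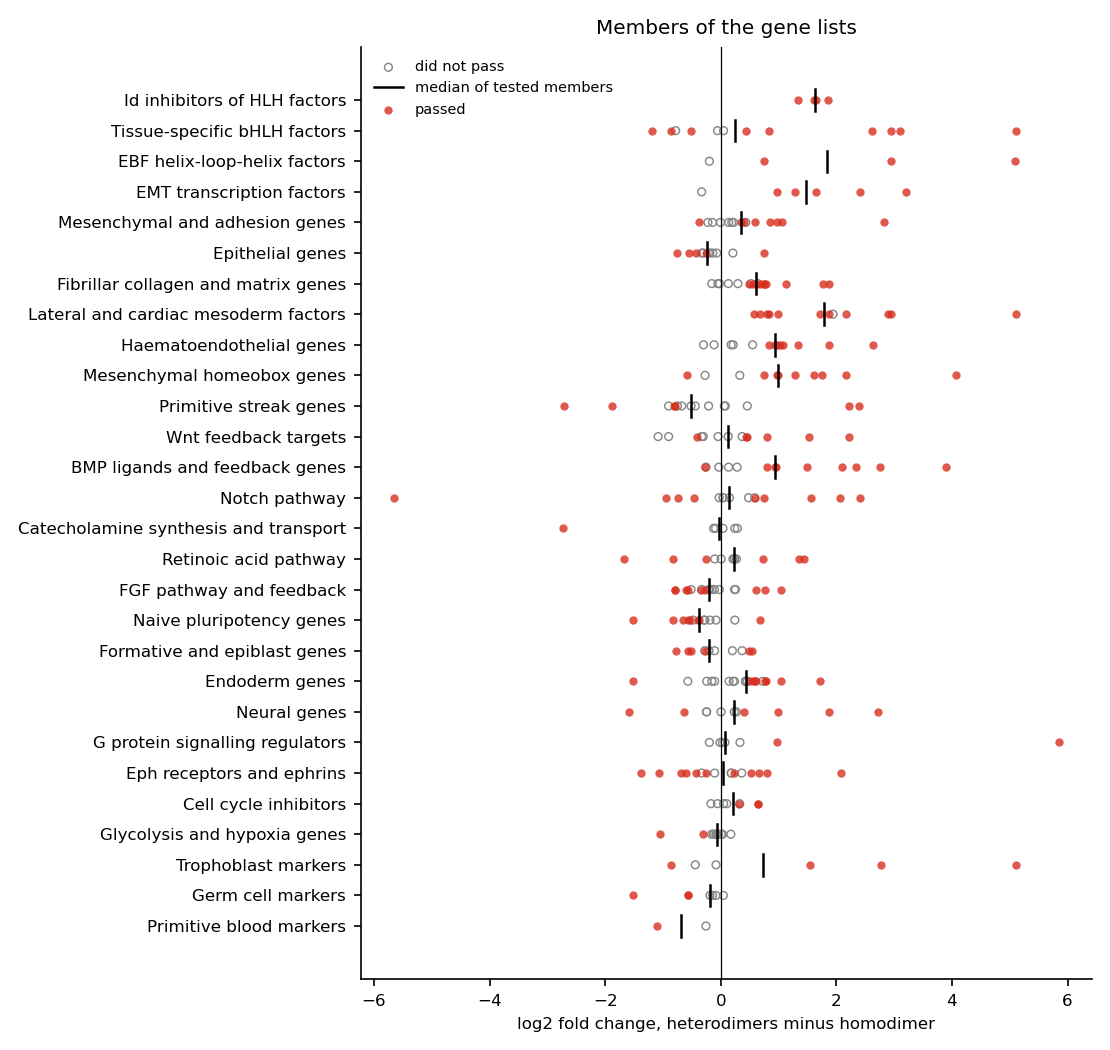
Log2 fold change of heterodimers minus homodimer (x axis) for every tested member of 28 gene lists (y axis, 1 row per list). Filled points passed, open points did not, and the bar is the median of the tested members. The lists of lateral and cardiac mesoderm factors (median 1.79), Id genes (1.62) and EMT factors (1.47) lie to the right, and several lists, such as the Notch pathway, have passing members on both sides.

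Signals were counted by list, beside 7.99% higher and 6.04% lower over all tested genes. Of 13 tested BMP ligands, inhibitors and feedback genes 8 were higher and 1 lower (median 0.93). The ligand Bmp7 was at 5.29, 7.18 and 4.73 CPM with the homodimer, 48.6, 35.3 and 35.7 CPM in the TCF3-labelled, 19.98, 19.9 and 18.6 CPM in the TCF4 and 42.4, 33.3 and 23.2 CPM in the TCF12-labelled libraries. The groups did not overlap (log2 fold change 2.35, SE 0.18, edgeR adjusted p 4.6e-08). Gdf10, also a ligand of the family, was at 0.432, 0.18 and 0.309 CPM and 2.38 to 8.6 CPM (3.90). Among intracellular members the inhibitory Smad6 (2.09) and the receptor-regulated Smad9 (2.75) were higher and Smad7 was lower (-0.28). Bmp7, Gdf10, Smad6 and Smad9 passed in each heterodimer.

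Of 15 tested Notch genes 5 were higher and 4 lower, or 7 and 4 without sample 1 labelled TCF12 dimer, and the ligands split. Dll3 was at 12, 14.1 and 14.6 CPM with the homodimer and 33.6 to 56.6 CPM with the heterodimers (1.56), and Jag1 was higher by 0.74. Dll1 was at 16.9, 13.6 and 14.9 CPM and 5.05 to 9.67 CPM (-0.94), and Jag2 (-0.47) and the glycosyltransferase Lfng (-0.75) were lower too. Of the bHLH targets Hey2 (2.06), Heyl (2.41) and Hes1 (0.59) were higher. Hes3 was at 1.51, 2.06 and 2.16 CPM with the homodimer and had 4 counts in the 9 heterodimer samples, of which it was listed at 0 in 6. The homodimer ratio to the heterodimers was 53.3 (95% exact interval 19.7 to 202, edgeR adjusted p 3.4e-06). It was listed at 0 in the parental line.

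A few other genes were higher with the homodimer. Th, tyrosine hydroxylase, was at 0.971, 0.987 and 1.65 CPM with the homodimer and up to 0.328 CPM with the heterodimers, and the other 5 tested genes of catecholamine synthesis and transport did not pass. Th was not tested without sample 1 labelled TCF12 dimer, since it then fell under the count filter. Aldh1a1, a retinoic acid synthesis enzyme, was at 1.08, 1.8 and 1.13 CPM and 0.21 to 0.608 CPM (-1.68). Of 12 tested retinoic acid genes 3 were higher and 3 lower, the binding proteins Crabp1 (1.44) and Crabp2 (1.36) and the receptor Stra6 being higher.

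Of 13 tested Wnt feedback targets 5 were higher and 1 lower, or 6 and 2 without sample 1 labelled TCF12 dimer. Notum, a secreted Wnt deacylase, was at 3.45, 2.69 and 2.47 CPM with the homodimer, 2.6, 2.05 and 2.43 CPM with TCF4, 17.4, 13.9 and 16.7 CPM in the TCF3-labelled and 26, 12.1 and 7.43 CPM in the TCF12-labelled libraries. The TCF4 samples overlapped the homodimer samples and the other 6 did not. Dkk1, a secreted Wnt inhibitor, was likewise smallest with TCF4 (log2 fold changes 3.21, 0.77 and 2.66 in TCF3, TCF4 and TCF12 order), and both genes differed among the heterodimers (edgeR adjusted p 1.5e-05 and 5.3e-07). Axin2, a widely used readout of the pathway, was lower (-0.42). Of 18 tested FGF genes 3 were higher and 6 lower, or 3 and 8 without that sample. Fgf4 was at 81.2, 79.9 and 83.3 CPM with the homodimer and 39.8 to 57.6 CPM (-0.79), and the feedback inhibitor Spry4 at 157, 166 and 160.0 CPM and 78 to 138 CPM (-0.60), each without overlap. Of 16 tested Eph receptors and ephrins 5 were higher and 6 lower, or 6 and 7 without that sample. Efnb1 was at 5.07, 6.1 and 5.86 CPM with the homodimer and 11.6 to 38.9 CPM (2.08), while its relative Efnb2 was at 141, 124 and 132 CPM and 36.1 to 81.1 CPM (-1.07).

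Of 15 tested primitive streak genes 2 were higher and 4 lower (median -0.51), or 2 and 5 without sample 1 labelled TCF12 dimer. The lower ones were T, Evx1 (-1.88), Nodal (-0.82) and Fgf4, and the higher ones Gsc and Dkk1. Gsc, a homeobox gene of the organiser, was at 0.216, 0.269 and 0.309 CPM with the homodimer and 0.53 to 2.83 CPM with the heterodimers (2.39), and at 6.16 CPM on average in the parental line. Eomes did not pass (-0.21, edgeR adjusted p 0.392). Of 14 tested naive pluripotency genes 7 were lower and 1 higher, or 9 and 1 without sample 1 labelled TCF12 dimer. The higher gene was Tbx3. Sox2 was lower in each heterodimer, at 222, 226 and 215 CPM with the homodimer and 132 to 167 CPM (-0.56). The other 6 lower genes were Esrrb, Klf2, Zfp42, Prdm14, Nr0b1 and Tdgf1, and none of these 6 passed in the TCF3-labelled libraries. Esrrb was at 67.2, 72.4 and 68.6 CPM with the homodimer, 65, 81.7 and 86.5 CPM in the TCF3-labelled, 26.7, 29.8 and 35.8 CPM in the TCF4 and 17.6, 25.8 and 30.7 CPM in the TCF12-labelled libraries (edgeR adjusted p among heterodimers 1.1e-06). Pou5f1 was not called (-0.27, edgeR adjusted p 0.0717) but was without that sample (-0.36, adjusted p 2.9e-07).

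Of 11 tested neural genes 4 were higher and 2 lower, or 5 and 3 without sample 1 labelled TCF12 dimer. Pax3, a factor of dorsal neural tube and neural crest, was at 1.51, 0.898 and 1.65 CPM with the homodimer and 2.62 to 9.19 CPM (1.87), and Zic1 and Ncam1 (1.00) were higher in each heterodimer too, with Nes (0.40) higher as a class. Pax6 (-0.63) and Dcx (-1.59), genes of neural progenitors and young neurons, were lower. Of 11 tested formative genes, those of the epiblast after implantation, 2 were higher and 4 lower, or 4 and 6 without that sample, with Otx2 higher in each heterodimer (0.42, 0.51 and 0.52). Of 8 tested cell cycle inhibitors and cyclins 3 were higher and 0 lower, or 4 and 0 without that sample. Of 14 tested glycolysis and hypoxia genes 0 were higher and 2 lower, or 0 and 7 without sample 1 labelled TCF12 dimer. Over all tested genes 7.99% were higher and 6.04% lower, or 14.7% and 14.3% without that sample.

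The heterodimers did not agree on endoderm. Of 20 tested endoderm genes 8 were higher and 1 lower as a class (11 and 1 without sample 1 labelled TCF12 dimer), but 16 were higher and 0 lower in the TCF3-labelled libraries, 1 higher and 4 lower with TCF4, and 1 higher and 4 lower in the TCF12-labelled libraries. Gata6, a primitive endoderm factor, was at 4.1, 5.66 and 5.56 CPM with the homodimer, 23.7, 30.2 and 27.8 CPM in the TCF3-labelled, 4.4, 4.45 and 4.74 CPM in the TCF4 and 2.94, 4.02 and 3.87 CPM in the TCF12-labelled libraries. Its class value of 0.58 (edgeR adjusted p 0.00832) was thus carried by 1 partner, and averaging TCF4 and TCF12 alone gave -0.33. Col4a2 and Lama1, basement membrane genes that this endoderm makes, passed as a class (0.77 and 1.05) and in the TCF3-labelled libraries, and in neither of the others alone. The uninduced monomer line, which carries an integrated construct without doxycycline, averaged 43 CPM of Gata6 and 451 CPM of Col4a2.

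Summed levels of marker genes were set beside these results. Over 5 endoderm markers (Sox17, Gata4, Gata6, Afp, Ttr) the sum was 74.8 to 91.8 CPM in the TCF3-labelled libraries, 23.4 to 28.6 CPM with the homodimer, 20.4 to 25.1 CPM with TCF4 and 23.3 to 31.6 CPM in the TCF12-labelled libraries. Of 5 embryoid body and embryonic stem cell markers (Pou5f1, Sox2, Epcam, Cdh1, Dnmt3b) 0 were higher and 1, Sox2, was lower. Their sum was 2416 to 2712 CPM in the TCF3-labelled libraries and 3666 to 3788 CPM with the homodimer. It was 3766 to 3856 CPM with TCF4 and 2648 to 3495 CPM in the TCF12-labelled libraries. Dnmt3b and Cdh1, also members of the formative and epithelial lists, weighed most, with 49830 and 29331 homodimer counts against 18705 for Pou5f1. Of 5 fibroblast markers 4 were tested, 1 higher and 1 lower, with sums of 32.3 to 35.4 CPM with the homodimer and 34.0 to 53.8 CPM with the heterodimers. Of 7 trophoblast markers Elf5 was at 0 in all 12 samples, 1 was higher and 1 lower, with sums of 152 to 170 CPM with the homodimer and 111 to 205 CPM with the heterodimers. Of 5 blood markers 2 were tested, 0 higher and 1 lower. Their sum was 5.95 to 7.4 CPM in the TCF3-labelled libraries, 2.69 to 3.35 CPM with the homodimer, 1.46 to 1.89 CPM with TCF4 and 1.48 to 2.02 CPM in the TCF12-labelled libraries. Of 5 primordial germ cell markers 4 were tested, 0 higher and 2 lower, with 13.1 to 16.6 CPM in the TCF3-labelled libraries, 13.99 to 15.7 CPM with the homodimer, 9.32 to 10.8 CPM with TCF4 and 8.78 to 9.23 CPM in the TCF12-labelled libraries. Of 4 neural markers 3 were tested, 1 higher and 1 lower, with 176 to 196 CPM in the TCF3-labelled libraries, 170 to 175 CPM with the homodimer, 213 to 240 CPM with TCF4 and 214 to 267 CPM in the TCF12-labelled libraries. The blood sum was thus highest in the TCF3-labelled libraries, where it was mostly Runx1. This 1 gene had 62, 74 and 79 counts there, 16, 15 and 18 with the homodimer and 74, 90 and 115 in the uninduced monomer line. Gata1, the lower marker, had 6, 7 and 9 counts in the TCF3-labelled libraries and 12, 15 and 8 with the homodimer. The neural sum lay above the homodimer in every heterodimer sample. A longer list of trophoblast genes, which holds Hand1, had 3 of 6 tested genes higher and 1 lower, and germ cell genes had 0 of 7 higher and 3 lower. The part of these shifts in the gene lists above was not tested.

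The clearest splits were 96 genes that passed in opposite directions in at least 2 heterodimers. At 82 of them the TCF3-labelled libraries were on the higher side of the homodimer (40 against TCF12, 20 against TCF4 and 22 against both), and at 14 another heterodimer was. Among the 6 with the smallest p among heterodimers were Lncenc1, Aqp8, Nxf7, Dab2 and Foxq1, and all 6 were high in the TCF3-labelled libraries. Lncenc1, a long noncoding RNA of naive stem cells, was at 13.6, 12.8 and 14.7 CPM with the homodimer, 55.2, 55.6 and 59 CPM in the TCF3-labelled, 10.9, 9.84 and 10.2 CPM in the TCF4 and 8.92, 10.8 and 10.6 CPM in the TCF12-labelled libraries. Aqp8, a water channel, was at 5.83, 7 and 7.61 CPM with the homodimer, 20.1, 22.9 and 22.8 CPM where TCF3 was the label, 4.95, 4.62 and 4.93 CPM with TCF4 and 2.62, 2.05 and 2.5 CPM where TCF12 was the label. For both genes the TCF3-labelled samples lay above and the other 6 below all homodimer samples, and a class average hides this (Aqp8 -0.11, edgeR adjusted p 0.626). Aqp8 had single log2 fold changes of 1.68, -0.49 and -1.52, and Dab2, an endocytic adaptor of primitive endoderm, 1.32, -0.47 and -0.20. In the uninduced monomer line Aqp8 averaged 43.7 CPM and Foxq1 25.4 CPM, above the TCF3-labelled samples, while Lncenc1 averaged 11.6 CPM, below them.

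**Figure D5:**
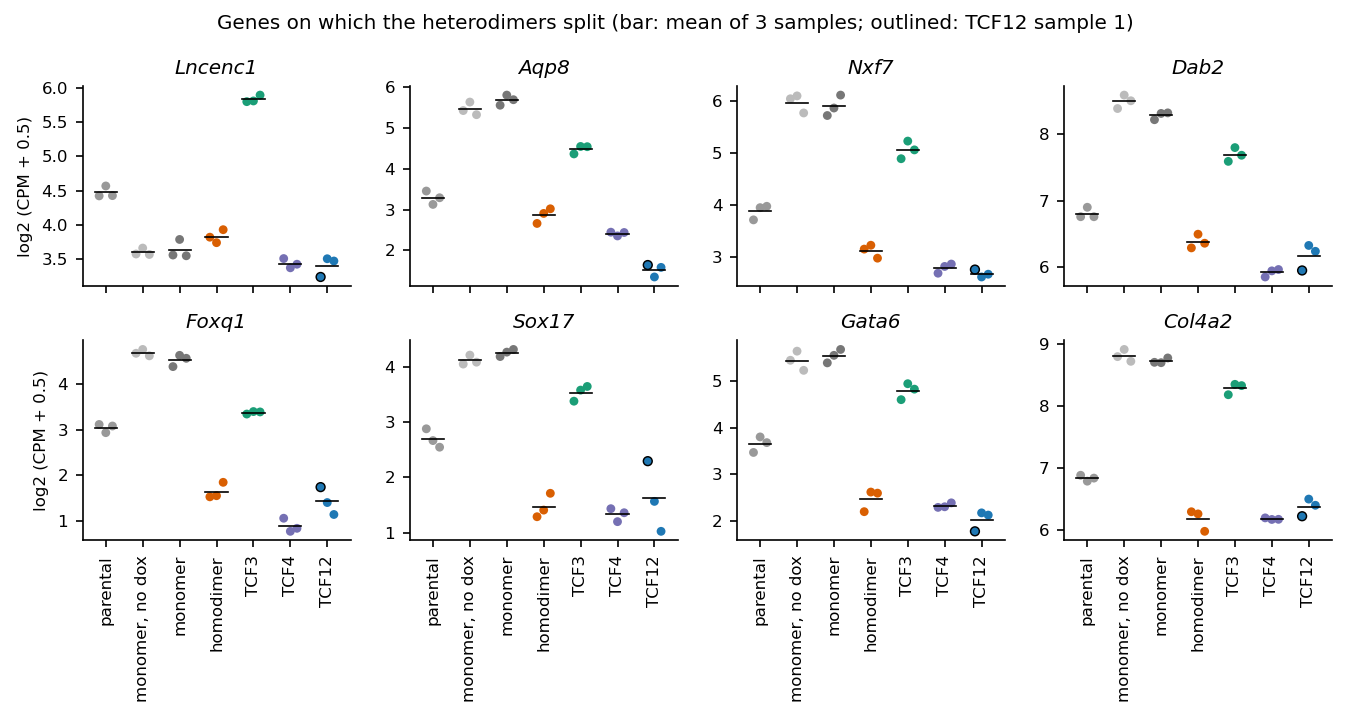
Normalised counts of 5 genes with a clear split among heterodimers, of the endoderm factors Sox17 and Gata6 and of the collagen gene Col4a2, as log2 of CPM plus 0.5 (y axis), in every sample by group (x axis, 3 samples each, bar at their mean). The TCF3-labelled samples lie above the homodimer, TCF4 and TCF12-labelled samples in all 8 panels. In 7 of them, all but Lncenc1, the 2 groups of the monomer line are higher still.

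Position also moved with 1 partner. Over 1117 tested genes of chromosome 11 the median log2 fold change against the homodimer was 0.20 in the TCF3-labelled libraries, -0.0049 with TCF4 and 0.05 in the TCF12-labelled libraries, and 12.4% of these genes were higher as a class, against 7.99% of all. Over 740 genes of chromosome 8 it was -0.13, 0.03 and 0.07. Serpinf1 and Nsg2 lie on chromosome 11 and had class log2 fold changes of 4.02 and 3.19. The part of these shifts in the other calls was not tested.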

How the data were processed

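Poly(A) RNA-seq of 21 samples (7 groups of 3) was deposited as read counts per gene symbol, 1 table per sample. The authors used FastQC, TopHat2, HTSeq and the mm10 (GRCm38) build, per the submitters' processing notes. Versions, the annotation and strand handling are not given in the sources used here, so reads of antisense and overlapping genes may be mixed. Tables were joined by row position, because 25 symbols had turned into dates in 18 of them. The TCF12-labelled tables kept the symbols, so this handling and the group cannot be told apart.

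Of 48321 symbols, 14311 passed edgeR's filterByExpr (minimum count 10, minimum total 15). Counts were scaled by TMM and fitted with edgeR 4.0.16 (R 4.3.3, limma 3.58.1), with 1 mean per group over all 21 samples, so that all groups share 1 estimate of the spread. The class value is the average of the 3 heterodimer means minus the homodimer mean. The quasi-likelihood test was used, and genes passed at a Benjamini-Hochberg adjusted p of 0.05 over all tested genes. A test with 2 degrees of freedom compared the 3 heterodimers. Standard errors are the fold change divided by the root of F. Intervals of count ratios are exact (95%). The script was tested on simulated data.

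The text names the 12 higher and the 12 lower genes with the largest class difference among those that passed in the class and in each heterodimer, passed as a class without sample 1 labelled TCF12 dimer, did not overlap and reached a mean of 5 CPM. It also names the 6 genes with the smallest p among heterodimers of those passing in opposite directions, and members of 28 gene lists. Some genes that meet these rules count in the totals and are not reported here. Lists, members and rules were chosen with earlier results of these data known. Alternatives were DESeq2 1.42.0, other scalings, filters and weights, thinned counts, other averages and each sample left out. No sample columns were set aside. Replicate numbers did not pair the samples.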

Additional observations from a re-analysis of the deposited data

Results flagged for a closer look

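Sample 1 labelled TCF12 dimer stood away from the other 8 heterodimer samples at 2 of the 30 genes looked at this way. Its gap to the nearest sample was 0.574 of the whole range for Tcf12 and 0.688 for Sned1, in log2 CPM. Chance flags about 1 group in 20.

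At 20 of 27 genes the size of the difference from the homodimer was not the same in the 3 heterodimers, by edgeR's test among them. Both counts include the genes on which the heterodimers split, whose result was fixed by the way they were chosen. Over all tested genes the share that differed was 26%. For transcription factors higher with all 3, the adjusted p was 0.00153 for Hand1, 0.00383 for Snai1, 0.000333 for Bhlhe22, 0.000379 for Lhx2 and 7.2e-05 for Zic1. For the surface and secreted proteins it was 0.000746 for Serpinf1, 0.0314 for Tril, 0.00372 for Tmem132c and 0.0199 for Cdh11. All 9 rose least with TCF4. Among genes lower with all 3, edgeR's adjusted p was 9.8e-06 for Adgrb2 and 0.000607 for Sptb, which fell most in the TCF3-labelled libraries. It was 0.00207 for Twist1, 0.0162 for Lax1, 0.00504 for Vstm2b and 0.0014 for Chst1, which fell most with TCF4. The genes on which the heterodimers split were chosen by this test, so their edgeR values are a description: 3.3e-13 for Lncenc1, 1.8e-11 for Aqp8, 8.1e-11 for Nxf7, 8.6e-11 for Dab2 and 2.2e-10 for Foxq1.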

How the results depend on the processing

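The 24 genes with the largest shared differences kept their direction and call under 25 alternatives (600 of 600 values). The choice of these genes by size, full separation and a pass in each heterodimer largely fixed this outcome. Of 3971 values for 160 list members, 3656 kept both, 282 no longer passed, 31 newly passed and 2 turned: the average of TCF4 and TCF12 gave -0.33 for Gata6 and -0.0417 for Fgf10. These 160 are only a part of the tested list members, and new calls among the rest are not in these counts. Without sample 1 labelled TCF12 dimer, lower epithelial genes went from 4 to 10 of 12 tested. Lower glycolysis and hypoxia genes went from 2 to 7 of 14 tested. DESeq2 called 2075 genes as a class, library size scaling 1841, no filter 1708 and thinned counts 1610. Leaving out 1 sample gave 1305 to 4173 class calls, 2409 to 5988 for TCF3, 517 to 2498 for TCF4, 1430 to 4998 for TCF12, 315 to 1143 shared by each heterodimer and 2362 to 7219 among heterodimers. The highest class, TCF3, TCF4 and shared counts came without sample 1 labelled TCF12 dimer, and the highest TCF12 and among-heterodimer counts without its sample 3. The lowest class, TCF4 and shared counts came without homodimer sample 2. Leaving out any of the 11 samples other than sample 1 labelled TCF12 dimer gave 1305 to 2440 class calls. Fitting only the 12 samples gave 1310 as a class, 451 for TCF4, 1224 for TCF12, 294 shared and 1656 among heterodimers, and without sample 1 labelled TCF12 dimer 4189, 5924 for TCF3, 2469 for TCF4, 1139 shared and 5607 among heterodimers. Sample weights (voom) gave 4481, 6215 for TCF3, 2686 for TCF4, 3552 for TCF12, 1242 shared and 6442 among heterodimers. The cause of these moves was not tested. As to pairing, 18 same-numbered pairs had a mean correlation of -0.0023 (1 above 0.1), and the replicate block gave 1972 class calls, 3293 for TCF3, 819 for TCF4, 2233 for TCF12, 469 shared and 3717 among heterodimers. Genes near the floor of 3 counts, such as Rgs4, Ebf2 and Hes3, have wide ratio intervals, and the thinning and the 12-sample fit without that sample were added after seeing the data.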

Other observations

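Some further members of the lists moved as a class. Gata3, a zinc finger factor of trophoblast and sympathetic neurons, had 3 counts with the homodimer and 0.315 to 1.99 CPM with the heterodimers, a ratio of 8.62 (95% exact interval 2.86 to 42.5, edgeR adjusted p 0.00139). Plac1, a gene of placenta, was higher by 1.54 on the log2 scale. Of the germ cell genes Prdm1 (-0.57), Prdm14 (-1.53) and Ifitm3 (-0.56) were lower. The cell cycle inhibitor Cdkn1a, which encodes p21, was at 29.2, 27.9 and 26.3 CPM with the homodimer, 50.7, 59.3 and 56.4 CPM in the TCF3-labelled, 33.5, 36 and 42.9 CPM in the TCF4 and 50.5, 36.8 and 30.4 CPM in the TCF12-labelled libraries (0.64, edgeR adjusted p 0.00073), and the cyclins Ccnd2 (0.65) and Ccnd3 (0.31) were also higher.

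Eph signalling genes moved within receptor families in both directions. The receptors Epha7 (0.80) and Ephb4 (0.24) were higher, and Epha1 (-0.26), Epha3 (-0.68), Ephb1 (-1.39) and Ephb3 (-0.60) were lower. Ephb1 was at 5.72, 6.64 and 5.56 CPM with the homodimer and 1.36 to 3.77 CPM with the heterodimers. The hypoxia gene Car9, a carbonic anhydrase, was at 0.971, 1.35 and 1.13 CPM with the homodimer and 0.342 to 0.883 CPM with the heterodimers (-1.06, edgeR adjusted p 0.00895).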
